A study of Drosophila melanogaster with 3 samples.

Results

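The low-density lipoprotein (LDL) receptor family and its partner *Cubn* were followed in larval hearts of *Drosophila melanogaster* that lack the transcription factor Hand. The genes were picked by name and listed by 7 annotation numbers, namely *megalin* (CG12139), *Cubn* (CG32702), *LpR1* (CG31094), *LpR2* (CG31092), *arr* (CG5912), *yl* (CG1372) and *LRP1* (CG33087). The choice was made with the low values of *megalin* on these arrays known, so that its values are given as a description. Of the 7 genes, 5 had a row among the 7498 annotation numbers of the table, each of which is counted here as a gene. *LpR1* and *LpR2* were unmeasured, also under the older numbers that RefSeq assigns to them. *megalin* had values on 2 arrays. *Cubn*, *arr*, *yl* and *LRP1* had 1 value each, and none of the 5 genes had values on all 3 arrays.

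Hearts came from wandering larvae of the third instar, either homozygous for the null allele hand173 or of the strain w1118, which served as wild type, all raised at 22 °C. The preparations, about 100 for either genotype, were not of the heart tube alone, since pericardial cells and some muscle remained on it. The hearts of each genotype gave 1 RNA pool. After amplification, the pools were compared on 3 spotted 2-colour arrays. On each of them hand173 RNA was labeled with Alexa Fluor 647 and w1118 RNA with Alexa Fluor 555. The dyes were not swapped, so that an effect of the dye on a gene cannot be told apart from that of the genotype. The study describes the arrays as technical replicates, whereas their labels read bR, an abbreviation that is not spelled out. They were taken here as technical, which leaves the genotypes without a biological replicate, and no p-value is given. Each value is the log2 ratio of hand173 over wild type, positive where the mutant had more of the transcript. Ratios do not show how strongly a gene is expressed, and the labelled tissue could therefore not be checked by the levels of heart markers.

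Receptors of this family share extracellular repeats that bind lipoproteins and many other proteins. They carry their cargo into the cell through clathrin-coated pits and release it in endosomes. Megalin and Cubilin are best known from the mammalian kidney, where they take filtered proteins back up. In *Drosophila*, Cubilin serves protein uptake by nephrocytes, a cell type that includes the pericardial cells along the heart. Cubilin is not itself an LDL receptor but binds its cargo through CUB domains.

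The arrays differed in the number of their values and in their centre. Array 1 held 1372 values with a median log2 ratio of 0.97, array 2 held 2650 values with a median of 0.38 and array 3 held 6459 values with a median of -0.56. On at least 2 arrays 2517 genes were measured, and 4981 genes were measured on 1 array, as were 4 of the members. Values of the members are therefore given as deposited and again after subtraction of the array median, referred to as centred. Values of other genes are given in either form or in both. The *hand* gene itself (CG18144) had a log2 ratio of -0.16 on array 3 and no other value. It gives no check of the genotype, since the part of the gene that the allele lacks is not given in the sources used here.

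*megalin* encodes a very large receptor of the cell surface that binds many ligands. Its log2 ratio was -4.78 on array 2 and -6.39 on array 3, and array 1 held no value. The measured ratio was thus 3.63% of wild type on array 2 and 1.19% on array 3. Both values lay near the lower end of their array. On array 2, 3 genes were lower than *megalin* and on array 3, 2 genes were lower. On average, the log2 ratio was -5.59 ± 1.14 (SD, n = 2 arrays). After centring, the values were -5.16 on array 2 and -5.83 on array 3, with a mean of -5.50 ± 0.48. The SD fell with centring because the centres of the arrays differ. With the arrays taken as technical replicates, it covers the spread between hybridizations and not the spread between animals. In such a pool, fewer cells that express a gene and less RNA per cell cannot be told apart.

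The distance of *megalin* from the bulk of the genes was large compared with the spread of each array. It lay at -3.67 SDs of the centred values on array 2 and at -5.61 SDs on array 3. On array 3 its ratio of mutant over wild type was 57.1-fold lower than the median ratio. Of the 2517 genes measured on at least 2 arrays, 0 had a lower mean than *megalin*, with the values as deposited and with centred values alike. The next gene, CG13869, had a mean of -5.37 as deposited, but its arrays were further apart, with -3.45 on array 2 and -7.28 on array 3. The centred value of *megalin* on array 3 minus that on array 2 was -0.68. Over the 1982 genes with both values the median difference was 0.42 in size, and 31.4% of the genes had a larger difference than *megalin*.

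**Figure D1:**
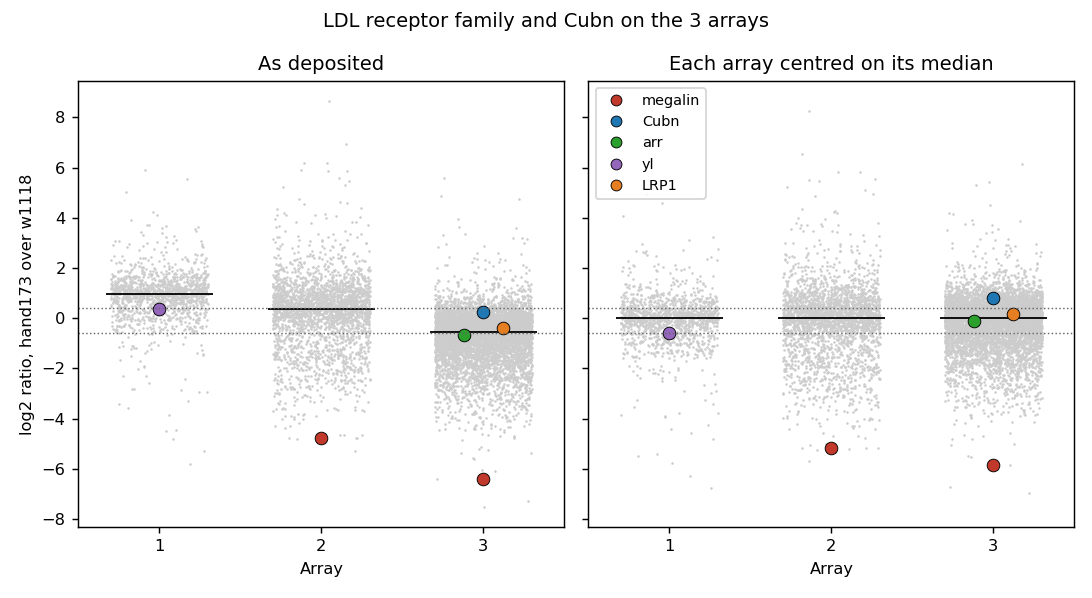
Log2 ratio of hand173 over w1118 (vertical axis) on each array (horizontal axis), as deposited on the left and centred on the right. Grey points are all genes, black lines are the medians of the arrays, dotted lines are the thresholds at log2 ratios of 0.41 and -0.58, and coloured points are the 5 measured members. *megalin* lies at -4.78 and -6.39 on the left and at -5.16 and -5.83 on the right, whereas *Cubn*, *arr*, *LRP1* and *yl* lie within the bulk of their array.

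In the study, downregulation meant a ratio under 0.67 (log2 ratio under -0.58), and upregulation a log2 ratio over 0.41, in each case on no fewer than 2 arrays. By this rule *megalin* was downregulated, and no member was upregulated. It was the only member with the 2 values the rule requires, so that the other members could not be scored. Of all 2517 genes with at least 2 values, 516 genes or 20.5% were downregulated and 244 genes or 9.69% were upregulated. This balance depended on the setting, since upregulated genes outnumbered downregulated ones by 174 to 12 when array 3 was left out, by 674 to 666 with the mean ratio, and by 1173 to 413 after the scaling factor of each array had been removed. On centred arrays 551 genes or 21.9% were downregulated and 298 genes or 11.8% upregulated, and *megalin* was downregulated again. The score of *megalin* is the reason for its choice, and nothing is read from the share of members.

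The lack of a value on array 1 matters for this gene. Including *megalin*, 40 genes had centred log2 ratios under -3 on both array 2 and array 3, and 8 of these had a value on array 1. On array 1, their log2 ratios as deposited ran from -1.30 to 1.36 with a median of -0.26. Of the 8 genes, 3 lay under a ratio of 0.67 on that array and 2 lay over the upward threshold. After centring, their values on array 1 ran from -2.27 to 0.39 with a median of -1.23. The genes were selected for low values on arrays 2 and 3, so that higher values on the array not used for the selection follow in part from it. How *megalin* behaved on array 1 is unknown.

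The low ratios of *megalin* also bear on the resolution of the values. On arrays 2 and 3, 400 values each with ratios from 0.1 to 1.5 were compared, and as powers of 2 nearly all of them were 3-decimal ratios scaled by the same factor, which was 0.931 on array 2 and 0.458 on array 3. The ratios of *megalin* lie under that range. Divided by this factor, they were 0.039 on array 2 and 0.026 on array 3. One step in the last decimal corresponds to 2.56% of the former value and to 3.85% of the latter. On array 2, 2 other genes, CG13085 and *dgt5*, had exactly the value of *megalin*, so that its rank there is shared. With the factors removed, the 2 values of *megalin* were closer together and had a mean of -4.97 ± 0.41, and 0 genes had a lower mean. The signals behind these ratios were not used here, and whether the mutant signal lay near background is unknown.

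*Cubn* encodes Cubilin, which acts in protein uptake. Its only log2 ratio was 0.24, on array 3, which is 118.0% of wild type. After centring, the value was 0.80, or a ratio of 1.74. On array 3, 89.7% of the genes lay under *Cubn*, which placed it in the upper part of that array. A value over the upward threshold was found for 27.3% of the genes on centred array 3, and for 6.50% as deposited, where *Cubn* did not reach it. On the same array, its log2 ratio exceeded that of *megalin* by 6.63. The lowest and the highest member of array 3 were thus receptors known to work together in mammals, in a comparison that rests on 1 value each.

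*arr* encodes Arrow, the co-receptor that works with Frizzled in the reception of Wingless. On array 3, it had a log2 ratio of -0.66, or 63.3% of wild type. The ratio lay under 0.67, as did the ratios of 49.0% of all genes on that array. After centring, the value was -0.10, and 44.8% of the genes were lower, so that *arr* sat close to the middle of the array. With the factor of the array removed, its log2 ratio was 0.47, and its direction in relation to wild type is therefore not settled.

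*LRP1* encodes the *Drosophila* counterpart of the mammalian LDL receptor-related protein of that name. Its log2 ratio on array 3 was -0.38, or 76.8% of wild type, and became 0.18 after centring. On that array 59.3% of the genes were lower. *LRP1* exceeded *arr* by 0.28 on the log2 scale, which is less than the median difference of 0.42 that a gene showed between centred arrays 2 and 3. The order of *arr* and *LRP1* is thus not resolved. *Cubn* exceeded *arr* by 0.90 on the log2 scale. The sign of the value of *LRP1* changed with the centre of the array, whereas its place among the genes did not.

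*yl* encodes Yolkless, the receptor for yolk proteins in the oocyte. Its only value came from array 1, with a log2 ratio of 0.38 or 130.5% of wild type. The median of array 1 was higher, and after centring the value was -0.58, or a ratio of 0.667. This ratio lay just under the threshold of 0.67, which 21.9% of the genes on centred array 1 did as well. On array 1, 21.6% of the genes were lower than *yl*. The value was positive as deposited and negative after centring, so that no direction is given for this gene. Since no other member was measured on array 1, *yl* cannot be set beside them.

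Genes with values close to those of *megalin* were searched by the Euclidean distance between centred log2 ratios. The search covered the 1515 other genes with values on arrays 2 and 3 and none on array 1. The 5 nearest were CG13869 at a distance of 1.60, CG32715 at 1.81, *WASp* at 2.05, CG16753 at 2.18 and *Hacd1* at 2.29, against a median distance of 7.91. *WASp* encodes an activator of branched actin polymerization and had log2 ratios of -3.64 and -4.68 as deposited. *Hacd1* was similar, with -3.59 on array 2 and -4.43 on array 3. The likeness rests on 2 values per gene from the same RNA pools. Since *megalin* was chosen for its low values and had the lowest mean, its nearest genes could only be other low genes. The median distance restates how far *megalin* lay from the bulk, and no shared regulation is read from the search.

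**Figure D2:**
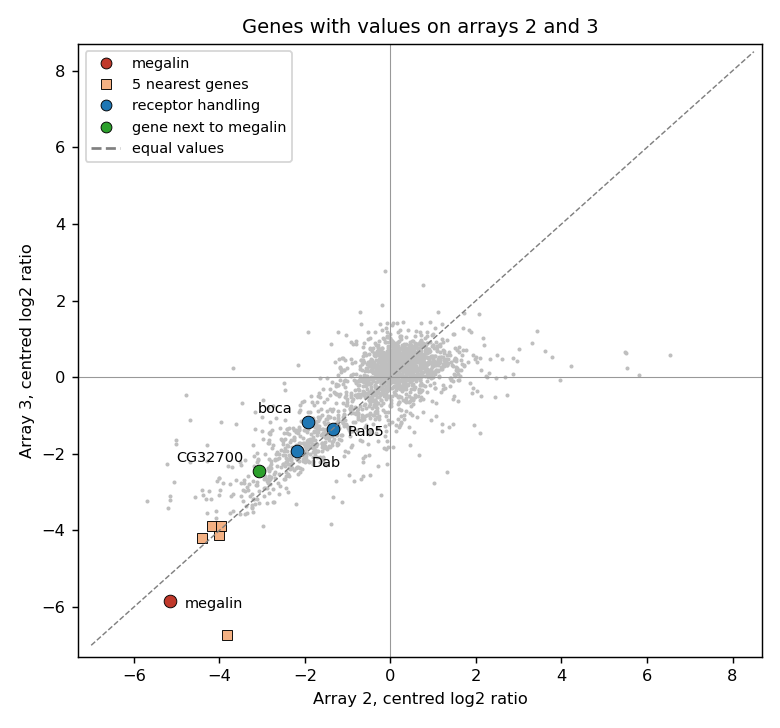
Centred log2 ratios on array 2 (horizontal axis) and array 3 (vertical axis) for the 1982 genes with both values, each grey point a gene. *megalin* lies at -5.16 and -5.83, beyond *boca*, *Dab*, *Rab5* and the adjacent gene CG32700, and the squares mark the 5 genes nearest to it among those without a value on array 1. The genes marked as receptor handling are only those scored as downregulated. The endocytic genes *Clc* (1.55 and 0.24) and *AP-2sigma* (-0.40 and 0.14) are among the grey points.

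Ligands and helpers of the receptors were examined next. Of 10 genes listed, 4 had a row, and 1 of them could be scored. This was *boca* (CG30498), which encodes a chaperone of the endoplasmic reticulum that LDL receptor family proteins need to reach the cell surface. *boca* was scored as downregulated, as were 20.5% of all genes with at least 2 values. Among the 466 genes with values on all 3 arrays, as for *boca*, 211 were downregulated. The log2 ratios of *boca* as deposited were 1.58 on array 1, -1.55 on array 2 and -1.72 on array 3. Arrays 2 and 3 were low and array 1 was high, also after centring, with 0.61, -1.93 and -1.16. The mean of -0.56 ± 1.86 (SD, n = 3 arrays) as deposited lay within the spread between arrays. *apolpp*, the apolipoprotein of lipophorin, had a value on array 2 only, 1.16 as deposited and 0.79 centred. *Apoltp*, the apolipoprotein of the lipid transfer particle, had a value on array 3 only, -1.66 as deposited and -1.10 centred. *Amnionless*, the partner of Cubilin, and the yolk proteins bound by Yolkless had no row.

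The endocytic machinery that the receptors share was represented by 15 of 26 listed genes, 6 of them with at least 2 values. *Dab* and *Rab5* were scored as downregulated and none as upregulated, beside the 20.5% and 9.69% of all genes. Both had values on all 3 arrays, and of the 466 such genes 211 were downregulated. *Dab*, whose product is an adaptor and whose mammalian relatives bind the tails of LDL receptors, had 0.18 on array 1, -1.82 on array 2 and -2.49 on array 3 as deposited. *Rab5*, a GTPase of early endosomes, had 0.44 on array 1, -0.97 on array 2 and -1.91 on array 3. For both genes arrays 2 and 3 were low and array 1 was not, whereas after centring all 3 arrays lay under 0, with -0.79, -2.19 and -1.93 for *Dab* and -0.53, -1.34 and -1.35 for *Rab5*. The centred means were -1.64 for *Dab* and -1.08 for *Rab5*. On centred arrays *Eps-15*, a component of coated pits, was scored as upregulated, as were 11.8% of all genes. It had 1.37 on array 1 and 0.94 on array 3.

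Other parts of this machinery were measured on 1 or 2 arrays. *Clc*, the clathrin light chain, had 1.93 on array 2 and -0.31 on array 3 as deposited, or 1.55 and 0.24 centred. *Chc*, the heavy chain, had 0.01 on array 3, or 0.57 centred. The clathrin adaptor subunit *AP-2alpha* had -2.10 and the uncoating factor *aux* had -2.37, both on array 3 only, or -1.55 and -1.82 centred. *Vps35*, a subunit of the retromer that recycles receptors, had -2.46 on array 3, or -1.90 centred. Its partner *Vps29* had 1.10 on array 1 and -2.27 on array 2, or 0.13 and -2.65 centred. Also high on array 3 after centring were *ced-6* with 0.79 and *Hrs* with 0.66, against 0.23 and 0.10 as deposited. On centred array 3, 5 of the 13 measured genes lay under a ratio of 0.67 and 4 lay over the upward threshold, beside 28.1% and 27.3% of all genes. The median centred value of the list was -0.26, against 0.01 for all genes, with single genes ranging from -1.90 to 1.16.

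Genes of the Wingless pathway around Arrow had 9 of 17 rows, of which 3 had at least 2 values. None was scored as downregulated or upregulated, with values as deposited or centred. Of all genes, 20.5% were scored as downregulated and 9.69% as upregulated as deposited, and 21.9% and 11.8% on centred arrays. With 3 genes that could be scored, nothing is read from this count. The lowest of the 3 genes was *nkd*, an inhibitor of the pathway, with centred values of -0.69 on array 2 and -0.45 on array 3. The highest was *gish*, a casein kinase, with 0.07 and 0.28 on the same arrays. Among genes with 1 value, the kinase *sgg* had -1.56 on array 3 after centring. The median centred value of the list was -0.12.

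Further proteins with LDL receptor repeats were taken from 12 genes, of which 8 had a row and 2 had values on at least 2 arrays. None was scored with the values as deposited, beside 20.5% of all genes down and 9.69% up. On centred arrays *cue*, a membrane protein needed for fertility, was scored as downregulated, with -0.93 on array 1 and -1.90 on array 2, as were 21.9% of all genes. *Corin*, a transmembrane serine protease, was the higher of the 2, with centred values of -0.24 on array 1 and 0.29 on array 3. *Lrp4*, a receptor of the same family that acts at synapses, had 0.77 on array 3 as deposited. *trol*, the perlecan of basement membranes, was found under an older number with -1.35 on array 2 as deposited, or -1.72 centred. The relaxin-type receptor *Lgr3* had the highest value of the list, 1.68 on array 3 as deposited and 2.24 centred. Values thus ran in both directions, with a median centred log2 ratio of 0.49.

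**Figure D3:**
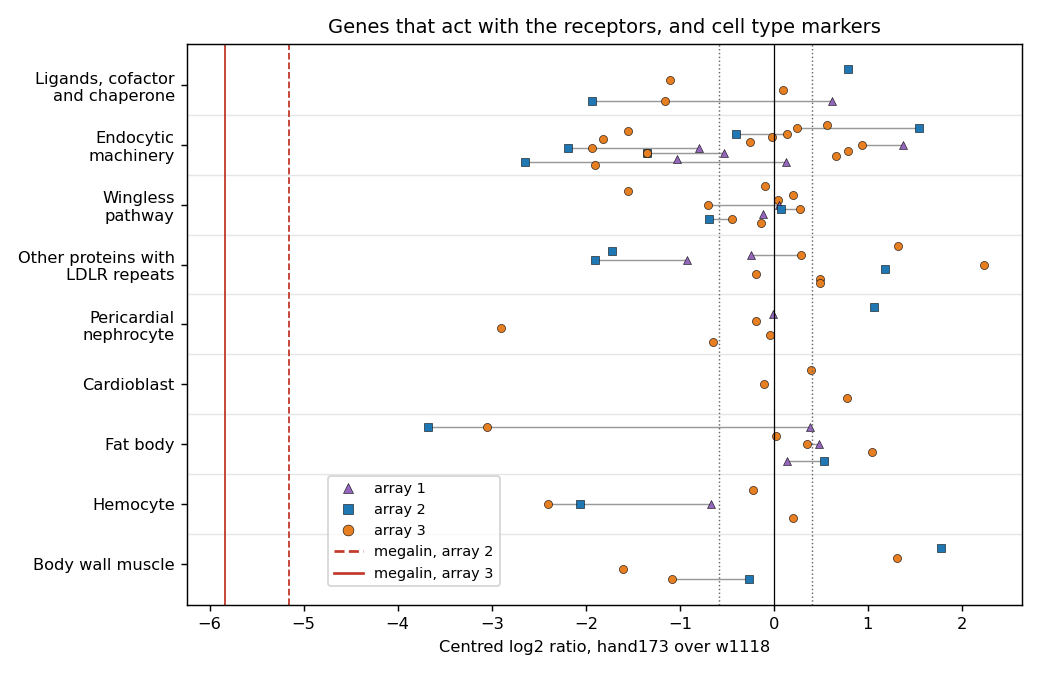
Centred log2 ratios (horizontal axis) of the listed genes, 1 row of symbols per table row, with lines joining values of the same row on different arrays. The dotted lines are the thresholds at -0.58 and 0.41, and the red lines give *megalin* at -5.16 on array 2 and -5.83 on array 3, below every value of these lists.

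Marker lists for several cell types were set beside *megalin*. The study names the heart tube, pericardial cells and alary muscles in the preparations. It does not name fat body, hemocytes or body wall muscle. For pericardial nephrocytes 5 of 10 listed genes had a row, all on 1 array per row, and *odd*, *kirre* and *prc* had none. Centred values ran from -2.90 on array 3 for *Mec2*, the counterpart of the mammalian slit diaphragm protein podocin, to 1.06 on array 2 for *sns*, the nephrin of these cells. *Klf15*, a transcription factor of nephrocytes, had -0.19 on array 3 and *zfh1* had -0.0048 on array 1. *pyd* had -0.04 and -0.65 on array 3, under different annotation numbers. Cardioblast markers had 3 of 5 rows, all on array 3 only, with centred values from -0.10 for *mid* to 0.78 for *Mef2*. The third was *hand* itself, with 0.40. It is the gene mutated in hand173 and is described by the study in pericardial cells too, so that it is not read as a marker. For fat body, 5 of 6 genes had a row. *Lsp1alpha* was scored as downregulated, with 1.36 on array 1, -3.30 on array 2 and -3.61 on array 3 as deposited. After centring, it had 0.39, -3.68 and -3.05 on these arrays. *Fbp1* was scored as upregulated with 1.10 on array 1 and 0.91 on array 2 as deposited, but not with its centred values of 0.14 and 0.53. These were 1 gene in each direction among 3 with at least 2 values, beside 20.5% and 9.69% of all genes. *Lsp1alpha* had 3 values, and of the 466 such genes 211 were downregulated. *Lsp1gamma*, also with 2 values, was not scored, with centred values of 0.49 on array 1 and 0.35 on array 3. *Lsp1beta* and *Lsp2* had centred values of 0.02 and 1.04, both on array 3 only. For hemocytes, 3 of 6 genes had a row. The only one with at least 2 values, *Pxn*, was scored as downregulated, like 20.5% of all genes and 211 of the 466 genes with 3 values. It had 0.30 on array 1, -1.69 on array 2 and -2.96 on array 3 as deposited. On centred array 3, *Pxn* had -2.41, whereas the other hemocyte markers lay closer to the array median, *NimC1* with -0.22 and *Col4a1* with 0.21. The list for body wall muscle had 4 of 7 rows. Whether its genes tell this muscle apart from heart or alary muscle was not tested. Centred values ran from -1.61 for *up*, on array 3 only, to 1.78 for *Mhc*, on array 2 only. *Mlc1* was the only muscle marker with the 2 values that a score requires. It was not scored and had a centred mean of -0.67. The part of a different tissue composition in the values of *megalin* was not tested.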

How the data were processed

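Hearts of hand173 and w1118 larvae were compared on 3 spotted arrays hybridized with 1 pool of amplified RNA per genotype. The scans were processed by the authors with GenePix 6.0 and Acuity 4.1. The deposited values are log2 ratios, with hand173 in the numerator and at most 1 value for each annotation number on an array. Some genes, such as *pyd*, have more than 1 number. The normalization method, the filter on spots, the combination of spots and the reason for empty cells are not given in the sources used here. The number of arrays limits the precision.

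Values were read as log2, since 97.8% to 99.5% of the values compared per array were then ratios with 3 decimals times 1 factor (tolerance 0.02 of the last decimal, ratios from 0.1 to 1.5), against at most 13.8% with e or 10 as the base. The rule of the study was applied as deposited, without a test. Numbers were matched to symbols in RefSeq (Release 6 plus ISO1 MT), where 7085 of 7498 were found, and no coordinates are given, since the build behind the array is not known.

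All members were named, as were scored genes of the lists and, where none was scored, the lowest and highest gene with at least 2 values. The 5 genes nearest to *megalin* and obvious partners were named too. Other single genes were named after their values were seen. The members and lists were chosen with earlier results of these data known. Alternatives were centring, centring with scaling, all 3 arrays, the mean ratio, other thresholds, genes with 3 values and leaving out each array. Removal of the factor, and centring and leaving out arrays for the lists, were chosen after seeing the data. The steps were tested on simulated data. Python 3.11.15, numpy 2.4.6 and pandas 2.3.3 were used.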

Additional observations from a re-analysis of the deposited data

How the results depend on the processing

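The mean log2 ratio of *megalin* stayed negative and moved by less than its SD under centring (-5.50), centring with scaling (-5.02) and removal of the array factors (-4.97), and ran from -6.39 without array 2 to -4.78 without array 3. The count of members scored as downregulated was 0 when all 3 arrays were required and ran from 0 to 1 with 1 array left out, being 0 without array 2 or array 3, since 1 value was then left. No member was scored as upregulated under any of these settings, and with genes of 3 values only no member was left. Over all genes, all 3 arrays gave 10 down and 5 up, and the 466 genes with 3 values gave 211 down and 149 up. The mean ratio gave 666 down and 674 up, a 2-fold threshold 424 down and 46 up, and removal of the factors 413 down and 1173 up. With 1 array left out, 12 to 501 genes were down and 39 to 174 up. Relative to the array median, *yl* became -0.58 after centring and -0.76 with scaling. With the factors removed, *yl* was 0.48, *arr* 0.47, *LRP1* 0.75 and *Cubn* 1.37, here relative to wild type. Of the lists, 1 endocytic gene was up and 1 gene with LDL receptor repeats was down on centred arrays, and 0 fat body genes were up. With 1 array left out, downregulated genes numbered 0 to 1 for ligands and helpers, 0 to 2 for endocytosis, and 0 to 1 each for fat body and hemocytes, being 0 without array 2 or array 3. Upregulated fat body genes numbered 0 to 1, being 0 without array 1 or array 2. Changes of centre act on whole arrays by construction. Each value is a ratio within an array and so already pairs hand173 with w1118 RNA. With 1 RNA pool per genotype, no pairing of biological replicates was possible.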

Other observations

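Genes next to the members were looked up in the RefSeq order, after the values had been seen. CG32700, the gene that follows *megalin*, was scored as downregulated, as were 20.5% of all genes as deposited and 21.9% on centred arrays. Its centred log2 ratios were -3.08 on array 2 and -2.45 on array 3. The gene on the other side, *Zdhhc8*, had a centred value of 0.54 on array 3 and was thus not low. The genes *BCL7-like* and CG44815 overlap *megalin* and had no row. RefSeq joins 5 further numbers with CG12139 into the gene model of *megalin*, none of which had a row, so that its values come from 1 of the former gene models. *LpR1* and *LpR2* are neighbours, and both had no row. Within the span of *LRP1*, CG14756 had centred values of 0.36 on array 1 and 0.94 on array 2. *LPCAT*, next to *Cubn*, had -0.16 on array 3 after centring, against -0.72 as deposited. *CG13403*, next to *yl*, had centred values of 0.51 on array 2 and 0.19 on array 3.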
